A study of Homo sapiens with 4 samples.

Results

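MM.1S is an established human multiple myeloma line, a malignant counterpart of the antibody-secreting plasma cell. What such cells express without drug was read from the DMSO control array of a series that also held MM.1S cells given 250 nM MLN4924, an inhibitor of the NEDD8-activating enzyme, for 8, 16 or 24 h. The control was 1 of 4 arrays, 1 per group, all of 1 cell line grown in vitro, and its labels gave no culture time. It held 54675 probe sets, from which 19775 genes were ranked by the intensity of the probe set with the highest mean log2 value over the 4 arrays. The MLN4924 arrays were used in that choice of probe set and as a technical check of the ranks.

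A plasma cell devotes much of its RNA to a single product, the antibody. IRF4, PRDM1 and XBP1 turn the B cell program down and the secretory program up, and antibody chains are then threaded into the endoplasmic reticulum (ER), folded, glycosylated and carried out by coated vesicles. In myeloma, chromosome translocations place genes such as MAF, NSD2 or a cyclin D gene beside immunoglobulin heavy chain enhancers, and MM.1S is known to carry the MAF form. Cyclin D proteins start the cell cycle, and in MAF myeloma CCND2 and the integrin ITGB7 are known targets of MAF.

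With 1 control array there were no replicates, so the values carry no error of their own and no test was made. An array intensity depends on how well each probe binds as well as on the RNA. Orders between genes are therefore orders of deposited intensity on a linear scale, not of RNA amount, and fewer cells of a type cannot be told apart from less RNA per cell. A percentile is the share of the 19775 genes with a lower control intensity. The table came without detection calls, so a background bound was set at 146, the 95th percentile of 59 genes restricted to tissues such as liver, brain, muscle and skin. Of all genes 9808 (49.6%) were above it, the top 10% (1977 genes) began at 1588 and the top 1% (0.996%, 197 genes) at 8340. Every count of list members below is to be read beside these shares of all genes.

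The intensities ran from 2.82 to 38884, with a median of 144. Control intensity was concentrated in few genes, since the highest 1% held 22.0% and the highest 10% held 63.8% of the sum over genes. The distribution had a peak below the bound, where the tissue-restricted genes lay, and a shoulder above it. Biotinylated control RNA added to the hybridization marked the scale, with median intensities of 1162 for bioB, 2704 for bioC, 10216 for bioD and 27856 for cre. Only 10 genes were above the cre median. The ratio of 3′ to 5′ probe sets was 1.19 for GAPDH and 2.21 for ACTB.

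**Figure D1:**
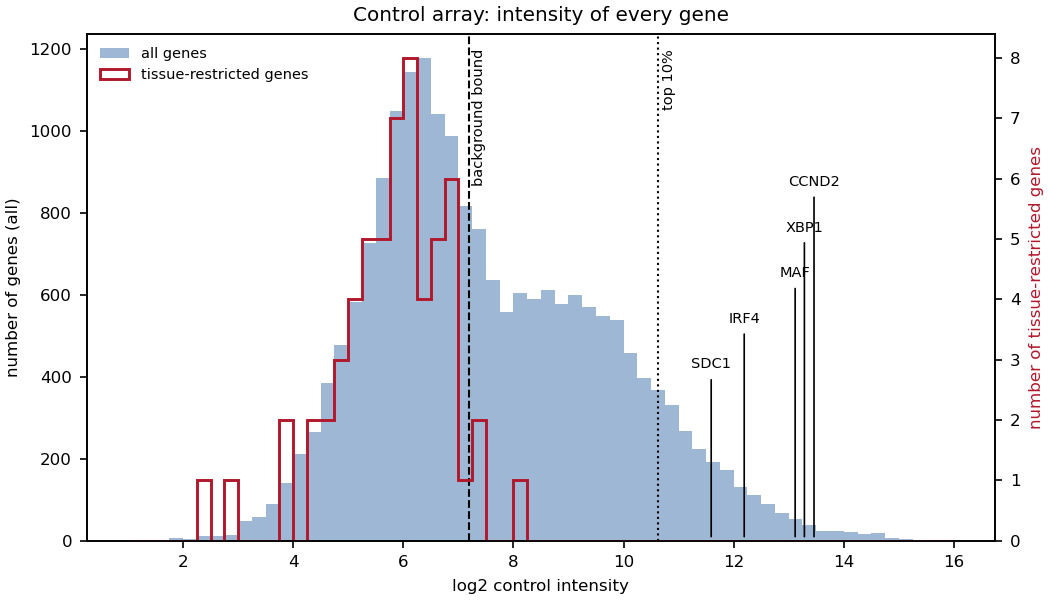
Histogram of log2 control intensity for 19775 genes (left axis, blue) and for 59 tissue-restricted genes (right axis, red outline), with the background bound (146) dashed and the start of the top 10% (1588) dotted. All 5 named marker genes lie right of the dotted line, from SDC1 (3087) to CCND2 (11264), and 3 of the 59 tissue-restricted genes lie right of the dashed line, as the bound's definition sets.

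All 5 genes chosen to mark the line were in the top 10%. SDC1 (CD138, chromosome 2, 20200797 to 20225475), the heparan sulphate proteoglycan used to sort plasma cells, had an intensity of 3087 in control cells and of 2821, 2939 and 2785 at 8, 16 and 24 h of MLN4924. IRF4 (chromosome 6, 391752 to 411443), a transcription factor that myeloma cells depend on, had 4678 in control cells and 3830, 5160 and 5144 in the same order. MAF (chromosome 16, 79202622 to 79600737), the transcription factor of the translocation, had 8882 in control cells and 7324, 8239 and 8035 with MLN4924. For IRF4 and MAF the values on different arrays were nearer to each other than those of different probe sets on the control array, which are given with the other probe sets. XBP1 (chromosome 22, 28794560 to 28800569), which drives the secretory program, had 9978 in control cells and 8787, 9848 and 10030 with MLN4924. CCND2 (chromosome 12, 4273762 to 4305353), cyclin D2, had 11264 in control cells and 7149, 7098 and 7040 with MLN4924, which put the control array above all of the others. The coordinates are those of RefSeq on GRCh38.p14. In the order of all genes CCND2 was number 119, XBP1 148, MAF 177, IRF4 504 and SDC1 908.

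The 30 genes of highest intensity fell into few classes. There were 18 cytoplasmic ribosomal proteins, 5 genes of the mitochondrial genome, 3 immunoglobulin lambda genes and 4 others. IGLC1, a constant region of the lambda light chain, was the highest of all at 38884, and IGLV1-44, a lambda variable segment, had 31234. IGLL3P, an immunoglobulin lambda-like pseudogene, had 23726. The mitochondrial genes were COX2 (37575), COX1 (34835), ND4 (36426), ND2 (24595) and ATP6 (27739), which encode subunits of cytochrome oxidase, of respiratory complex I and of ATP synthase. The 4 others were the translation elongation factor EEF1A1 (31107), the prolyl isomerase PPIA (27365), TPT1 (24033), a small calcium-binding protein, and the glycolytic enzyme GAPDH (23874). Of the 30 genes, 28 were read by probe sets that the array's naming marks as matching several transcripts (suffix _x_at or _s_at), against 28.2% of all genes. Among the 100 highest, 48 were ribosomal proteins of the list, 5 were mitochondrial, 5 were lambda genes or JCHAIN, and 36 belonged to no list.

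**Figure D2:**
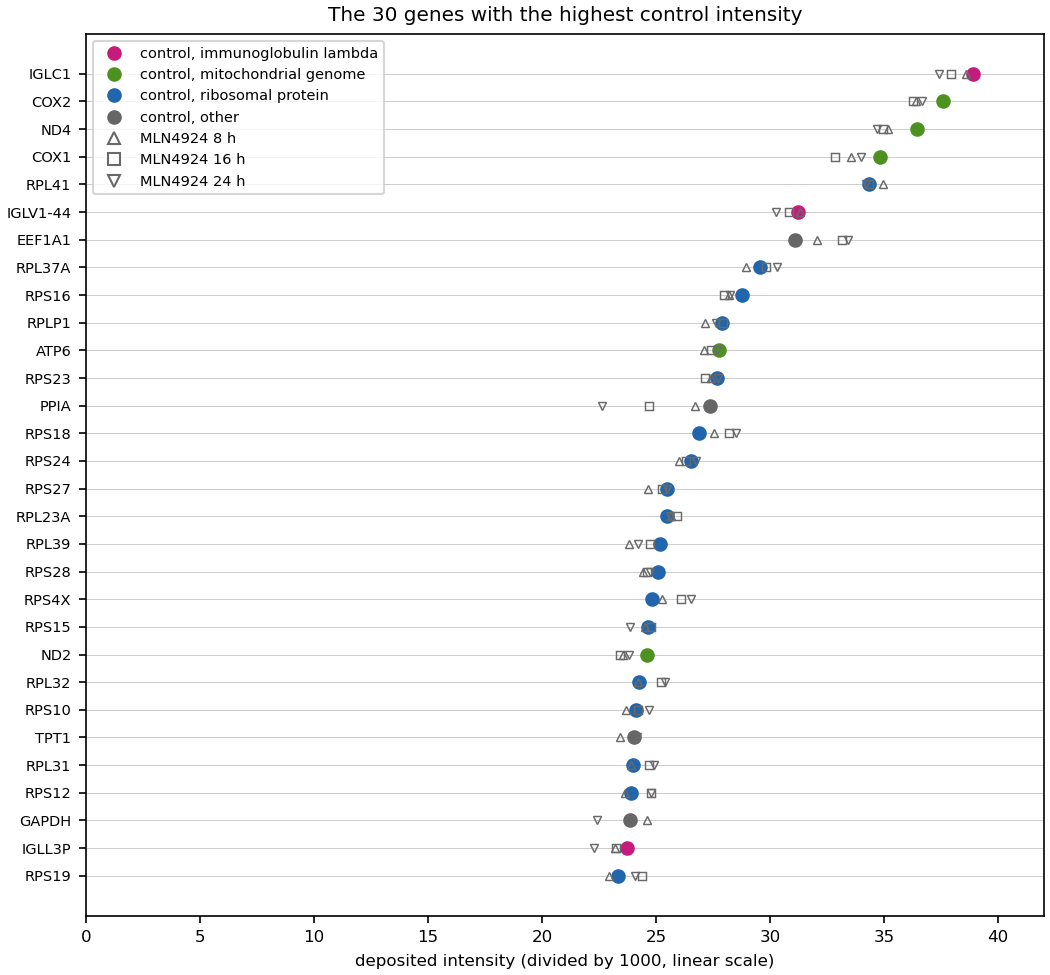
Deposited intensity (divided by 1000, linear scale) of the 30 highest genes on the control array (filled circles, coloured by class) and on the MLN4924 arrays at 8, 16 and 24 h (open symbols). IGLC1 leads at 38884, and for most genes the open symbols lie close to the filled one, with PPIA (27365 in control cells, 22627 at 24 h) among those farthest apart.

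The list of plasma cell transcription factors, which also held the ligase receptor CRBN, had 11 of 11 members above the bound and 6 in the top 10%, with a median percentile of 94.5. With the median over each gene's probe sets, 1 was in the top 10%. After XBP1 came POU2AF1 (7771), the coactivator of octamer factors at immunoglobulin promoters, IRF4 and MEF2C (4490), a MADS box factor of B cells. PRDM1 (BLIMP-1), the repressor that closes the B cell program, had 4163, and KLF13, a zinc finger factor, had 2676. The Ikaros family members IKZF1 (1134) and IKZF3 (907), which myeloma drugs remove by way of the ligase receptor CRBN (621), were in the middle range. POU2F2 (OCT2), an octamer factor, had 221, and ZBTB20, a zinc finger repressor, had 180, the lowest of the list.

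Light chain intensity was that of lambda. Besides IGLC1, the lambda-like gene IGLL5 had 15369 on an _x_at probe set, and 96.4 and 24.3 on its others. The values of IGLC1, IGLV1-44 and IGLL3P also came from _x_at probe sets, so these genes may share the signal of the same lambda transcripts. Without _x_at and _s_at probe sets IGLC1 was at percentile 68.4 and IGLV1-44 at 8.99. JCHAIN, which joins antibody units into polymers, had 22314 and MZB1, its ER-resident helper in antibody assembly, 8119. The kappa constant gene IGKC had 356 on the highest of its 8 probe sets, and IGHG1, IGHM, IGHD and IGHA1, the heavy chain genes, had 238, 169, 128 and 69.0. PIGR, the epithelial receptor for polymeric antibody, had 204, and the surrogate light chain genes IGLL1 and VPREB1 had 155 and 124. In all 9 of 12 members were above the bound and 4 were in the top 10%, against 4 and 2 with the median over probe sets. Probe sets that list several immunoglobulin genes were outside the ranking. Of these, 10 of 34 heavy chain probe sets were above the bound, with a highest value of 4801, against 4 of 11 kappa (highest 212) and 2 of 11 lambda probe sets (highest 32020). The heavy chain therefore had stronger probe sets than its single-gene values show. IGLC1 itself had 9 probe sets from 23.4 to 38884, of which 4 were above the bound.

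Of the genes at translocation and driver loci of myeloma, 8 of 13 (61.5%) were above the bound, against 49.6% of all genes. In the top 10% were 5 of them, or 3 with the median over probe sets. CCND2, MAF and MYC (8664), the growth-promoting transcription factor, were all in the top 1%, followed by IRF4. NSD2 (2106), the histone methyltransferase of another translocation class, was also in the top 10%, and all 6 of its probe sets were above the bound. FGFR3, its partner in that translocation, had 122 and did not pass the bound. Of the other cyclins, CCND3 had 844 and CCND1 64.2. The remaining values were 247 for WWOX, the large gene next to MAF, 205 for MYEOV, 122 for MYCL, 82.7 for MYCN and 77.5 for PVT1, a long non-coding RNA beside MYC. CCND2 was thus the D-type cyclin with the highest intensity, on probe sets whose binding may differ.

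Genes of the MAF program were divided. ITGB7, an integrin subunit for adhesion to marrow stroma, had 19294 (number 48 of all genes) and CCND2 is given above. DEPTOR, an mTOR inhibitor, had 4532, CCR1, a chemokine receptor, 4353, and ITGA8, an integrin subunit, 3084. The kinase NUAK1 (969) and SMAD1 (535), of bone morphogenetic protein signalling, were above the bound but outside the top 10%. NRP2 (127), NTRK2 (120), CX3CR1 (117), TLR4 (116) and SPP1 (28.5), all receptors or secreted factors, were below it. The list had 8 of 13 members above the bound (61.5%), against 49.6% of all genes.

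Surface proteins of plasma and myeloma cells were above the bound in 23 of 27 cases, 12 of them in the top 10%. ITGB7 was followed by TNFRSF17 (BCMA), a receptor for plasma cell survival factors, at 8763, CD44, a hyaluronan receptor, at 7011, and CD48, a ligand on leukocytes, at 6491. The complement regulators CD59 (6443) and CD46 (4390) and the phagocytosis inhibitor CD47 (5092) were in the same range. SLAMF7, a target of myeloma antibodies, had 4069, the integrin ITGB1 2328 and CD28, a costimulatory receptor, 1714. Several antibody or cell therapy targets were lower. GPRC5D had 1289, TNFRSF13B (TACI), a receptor for the same factors as BCMA, 1066, and CD38, the ectoenzyme, 352 on its 1 probe set, between the bound and the top 10%. The integrin ITGA4 (1550) and the chemokine receptor CXCR4 (1509) lay just under the top 10%, and LY9 (964) and ITGAL (705) further below it. CD27 (260), CD40 (240), ICAM1 (204) and TNFRSF13C (173) were low, and KIT (120), FCRL5 (51.3) and CD200 (47.1) were not above the bound. NCAM1 (CD56) had 77.4 on the probe set that stands for it, which was chosen by its level on the MLN4924 arrays. The highest of the 7 NCAM1 probe sets on the control array had 156.

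Genes that B cells silence on becoming plasma cells were above the bound in 10 of 24 cases (41.7%), a share near the 49.6% of all genes, with a median percentile of 47.1 and 0 members in the top 10%. The B cell commitment factors PAX5 (73.3), EBF1 (30.4) and SPIB (51.2) were below the bound, as were MS4A1 (CD20, 74.1), BCL6 (127), SPI1 (130), BTK (96.0), BLK (69.1), CD72 (49.2), CD24 (44.97), FCER2 (62.2), CD83 (82.1), MME (132) and VPREB3 (67.4). Those above the bound were led by the kinase SYK (768), the adaptor BLNK (724) and the complement receptor CR2 (633), all of antigen receptor signalling. The others were the repressors BACH2 (372) and BCL11A (320), the antigen receptor chains CD79B (273) and CD79A (159), CD22 (244), FCRLA (189) and CIITA (184), the activator of MHC class II genes.

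Antigen presentation genes were mixed. In the class I list, 8 of 9 were above the bound and 6 in the top 10%: the light chain B2M (20181), HLA-B (7833), HLA-C (7445), HLA-E (3935), the loading factor TAPBP (2925) and the peptidase ERAP1 (1598). The transporter genes TAP1 and TAP2 had 900 and 481, and NLRC5, the activator of class I genes, 81.8. In the class II list 9 of 10 were above the bound. The invariant chain CD74 had 10006, HLA-DRA 3768 and HLA-DPA1 2547, whereas CIITA, HLA-DQB1 (245) and HLA-DQA1 (90.03) had the lowest values. HLA genes are near-identical and vary between genomes, so that probe sets may read several genes or bind less well to one allele.

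**Figure D3:**
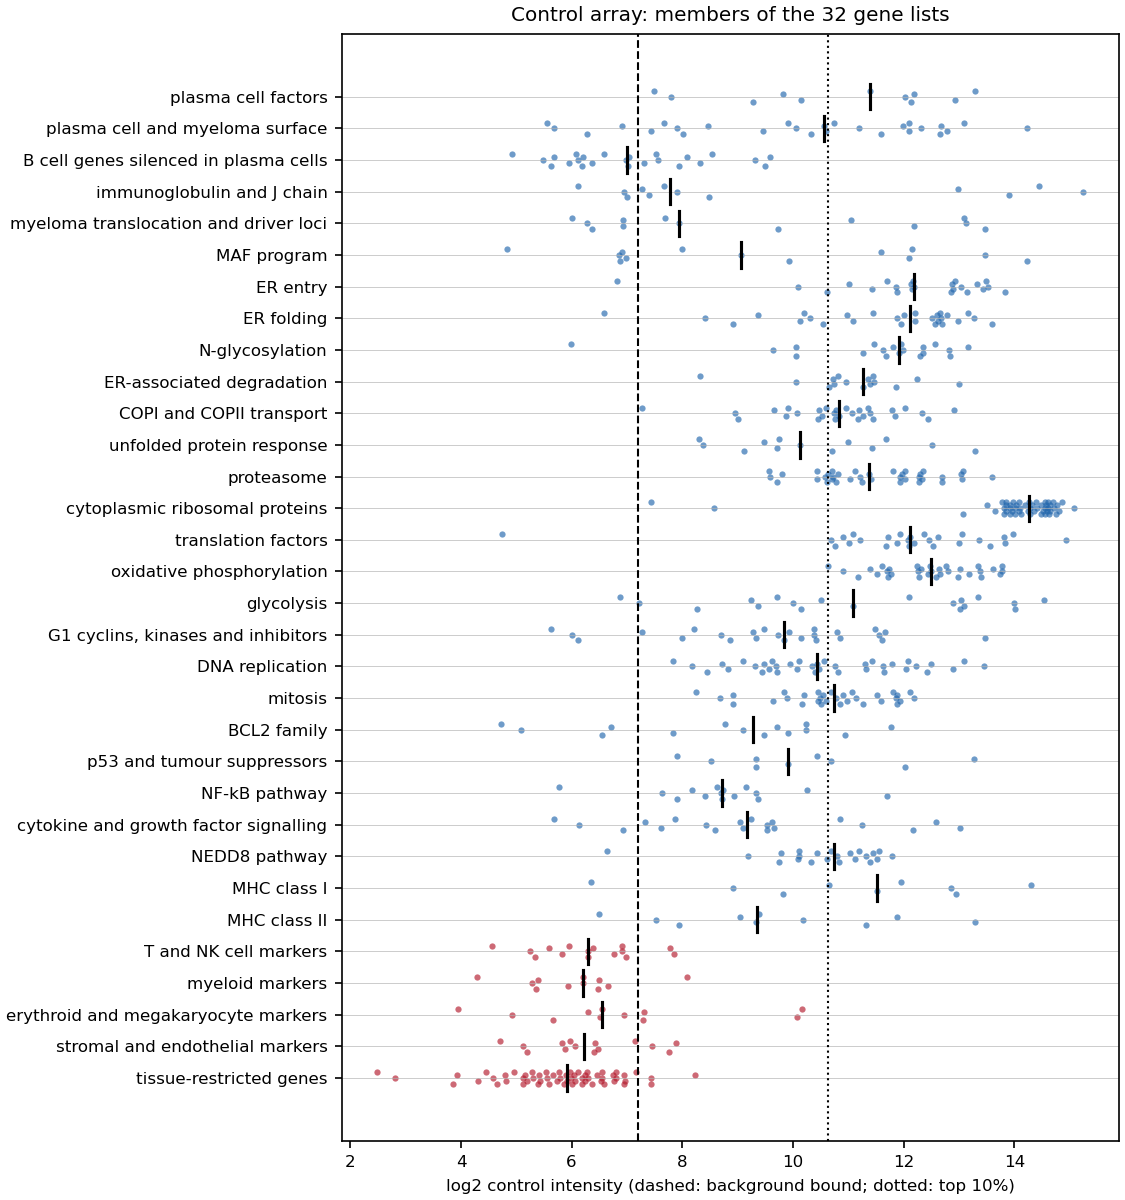
Log2 control intensity of every member with a probe set in each of the 32 gene lists (points) and the median of each list (black bar), with the background bound (146) dashed and the start of the top 10% (1588) dotted. Blue lists are of plasma cell, secretory, growth and cell cycle genes, and red lists are of other cell types. Ribosomal proteins have the highest median, at percentile 99.8, and the red lists and the B cell genes have medians left of the bound, as does the median of all genes (144). For the tissue-restricted genes the bound's definition sets this.

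The route into the ER was among the strongest groups, with 22 of 23 genes above the bound, 20 in the top 10% and a median percentile of 97.4. The signal peptidase subunits SPCS1 (14506), SPCS2 (11073) and SEC11C (10254), which cut off signal peptides, were among the 6 highest, together with SEC61B (11703), of the translocation channel, and SRP9 (11538) and SRP14 (9023), of the signal recognition particle. At the other end SRP68 had 1573 and SRP54 1086, and SEC61A2, an alternative channel subunit, had 113 and was the list's exception.

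ER folding genes numbered 27 of 28 above the bound, 20 in the top 10%, at a median percentile of 97.2. The highest were the prolyl isomerases PPIB (12357) and FKBP11 (9154), the lectin chaperone CANX (9870), MZB1, and the disulphide isomerases P4HB (7027) and PDIA6 (6611). The lowest were the nucleotide exchange factor SIL1 (485), the isomerase FKBP14 (340) and ERO1B (95.4), an oxidase that helps form disulphide bonds. Many of these promoters are known to carry the ER stress response element, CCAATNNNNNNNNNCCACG, through which ATF6 acts with the factor NF-Y. It was found on either strand in 6 of 25 ER folding promoters (24.0%), against 16 of 15381 promoters of ranked genes (0.104%). The promoter is the RefSeq sequence from 250 bases before to 50 bases after the start of a gene, on GRCh38.p14. This motif and the others below are textbook ones that were searched, and whose carriers are named, after the values were seen. A match is a description of letters and not of a bound site. The 6 promoters and that of XBP1 are shown because they hold the same element while their intensities run from 95.4 to 9978. Capitals mark the 5-base blocks at each end of the element, and each sequence is written in the direction of its gene, so that the reverse complement appears in CALR, HSP90B1, CRELD2 and ERO1B.
XBP1: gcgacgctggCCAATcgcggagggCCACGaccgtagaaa
CANX: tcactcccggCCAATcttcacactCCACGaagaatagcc
CALR: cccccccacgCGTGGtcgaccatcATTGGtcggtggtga
HSPA5: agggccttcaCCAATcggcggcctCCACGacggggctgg
HSP90B1: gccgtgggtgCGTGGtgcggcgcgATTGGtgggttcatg
CRELD2: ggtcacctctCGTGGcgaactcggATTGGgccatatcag
ERO1B: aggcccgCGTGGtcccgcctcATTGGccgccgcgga
On GRCh38.p14 these lie for XBP1 at chr22:28800593-28800631 (minus strand), for CANX at chr5:179698768-179698806 (plus strand), for CALR at chr19:12938374-12938412 (plus strand) and for HSPA5 at chr9:125241381-125241419 (minus strand). The rest lie for HSP90B1 at chr12:103930311-103930349 (plus strand), for CRELD2 at chr22:49918544-49918582 (plus strand) and for ERO1B at chr1:236282173-236282208 (minus strand). CALR, a lectin chaperone, had an intensity of 6468, HSPA5 (BiP), the main ER chaperone, 6261, HSP90B1 (GRP94) 6089 and CRELD2, a disulphide isomerase, 1485. With ERO1B at 95.4, the element was found both in strong genes and in a gene below the bound. The 19 members without it had a median of 4713, and the 6 with it 6175. Both groups spread widely, since the members with the element ran from 95.4 to 9870 and those without from 485 to 12357.

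N-linked sugar attachment was high in the same way, with 18 of 19 genes above the bound and 15 in the top 10%. The oligosaccharyltransferase subunits RPN2 (9137), TMEM258 (7339), OSTC (7257), OST4 (6066) and KRTCAP2 (5240) and the dolichol mannose synthase subunit DPM1 (5238) led. The quality control glucosyltransferase UGGT1 (1062) and the glucosidase MOGS (797) were lower, and TUSC3 (63.7), which takes the place of MAGT1 in some oligosaccharyltransferase complexes, was below the bound. ER-associated degradation, which returns misfolded chains to the cytosol, had all 15 genes above it and 13 in the top 10%. HERPUD1 (8199), the scaffold of the retrotranslocation complex, the conjugating enzyme UBE2J1 (4847) and SELENOS (3705) were the highest, followed by UFD1 (2839), DERL1 (2777) and VCP (2670), the extracting ATPase. DERL3 (1612), NPLOC4 (1062) and the mannosidase-like EDEM2 (320) were the lowest.

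Vesicle transport between ER and Golgi had 29 of 29 genes above the bound and 18 in the top 10%. The cargo receptors LMAN1 (7655), TMED2 (5541) and TMED10 (4160), the retrieval receptor KDELR1 (5128), the small GTPase ARF4 (3675) and the COPI coat protein COPB1 (3558) were the highest. ARF1 (515), the COPII coat gene SEC23A (497) and KDELR3 (155) were the lowest. The sequence TGACGTG, the core of a site that XBP1 and ATF6 can bind, was found on either strand in 10 of 26 of these promoters (38.5%), against 2.27% of all. The promoters below are shown for its copies in coat genes of both COPI and COPII, with the match in capitals and the other strand's form CACGTCA where it lies that way.
COPB1: cacccccttcCACGTCAgccaaggact
SEC13: tctggtctcgCACGTCActggaggata
COPB2: tcagcggcacCACGTCAcggcccttag
SEC24A: tgagagtcggTGACGTGgcggcgaggc
On GRCh38.p14 these lie for COPB1 at chr11:14499842-14499868 (minus strand), for SEC13 at chr3:10321239-10321265 (minus strand), for COPB2 at chr3:139389826-139389852 (minus strand) and for SEC24A at chr5:134648596-134648622 (plus strand). COPB1 and COPB2 (1997) are COPI subunits, and SEC13 (2671) and SEC24A (1418) belong to COPII. The 10 members with the sequence had a median intensity of 1571 and the 16 without it 1974, with ranges of 155 to 3558 and 808 to 7655 that overlapped.

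The sensors and factors of the unfolded protein response, which adjusts this machinery, were all above the bound (13 of 13), with 6 in the top 10%, or 1 with the median over probe sets. XBP1 led, then ATF4 (5869), the factor of the PERK branch, CREB3L2 (3277), an ER-anchored factor, and the sensors ERN1 (IRE1, 2765) and EIF2AK3 (PERK, 2035). ASNS, an ATF4 target that makes asparagine, had 1670. ATF6B (555), the phosphatase subunit PPP1R15A (332) and DDIT3 (CHOP, 316), induced under severe ER stress, had the lowest values of the list.

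The proteasome, the target of the main myeloma drugs, was high throughout. All 37 genes were above the bound and 28 in the top 10%. PSMB4 (12357), PSMA1 (8624), PSMA2 (8516), PSMA7 (8340), PSMA4 (6636) and PSMC2 (6574) were the highest, which are 5 subunits of the core and 1 of the cap. PSMB8 (841), an inducible subunit of the immunoproteasome, and the cap genes PSMD5 (765) and PSMD9 (762), which act in assembly, were the lowest.

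The cytoplasmic ribosomal proteins had the highest median of the 32 lists. They were above the bound in 52 of 52 cases and in the top 10% in 50, with a median percentile of 99.8. The 6 highest were RPL41 (34358), RPL37A (29570), RPS16 (28775), RPLP1 (27874), RPS23 (27670) and RPS18 (26886). The next 12 of the 30 highest genes were RPS24, RPS27, RPL23A, RPL39, RPS28, RPS4X, RPS15, RPL32, RPS10, RPL31, RPS12 and RPS19, between 26517 and 23313. RPS9 had 8587, and the 2 exceptions were RPL27A (382, on a single probe set) and RPLP2 (174, with 47.5 on its other probe set). Probe sets that list several genes were not ranked, so a low value here need not mean little RNA. Ribosomal protein genes have many processed copies in the genome, so their probe sets may read several. Translation factors had 26 of 27 genes above the bound, all 26 in the top 10%. EEF1A1, EEF2 (16157), EIF1 (14496), PABPC1 (14456), EIF4G2 (12014) and EIF5A (10554) led, and EIF2S1 (1742) and EIF6 (1645) were low. EIF4A2 (26.8) was below the bound on the single probe set ranked for it, to which the same limit applies. Transcripts of this machinery are known to begin with a run of pyrimidines through which growth signals set their translation. A start with C followed by at least 4 bases that are C or T was found in 33 of 46 ribosomal protein genes (71.7%) and 8 of 19 translation factors (42.1%), against 4.51% of all promoters. The starts of the 6 highest ribosomal protein genes are shown with 10 bases before and 20 from the start on, and capitals mark the run of pyrimidines from the first transcribed base in RefSeq.
RPL41: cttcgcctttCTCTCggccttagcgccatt
RPL37A: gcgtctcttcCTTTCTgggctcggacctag
RPS16: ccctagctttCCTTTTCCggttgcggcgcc
RPLP1: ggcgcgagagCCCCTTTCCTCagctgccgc
RPS23: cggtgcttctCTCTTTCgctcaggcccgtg
RPS18: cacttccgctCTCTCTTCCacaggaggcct
On GRCh38.p14 these lie for RPL41 at chr12:56116623-56116652 (plus strand), for RPL37A at chr2:216498834-216498863 (plus strand) and for RPS16 at chr19:39435930-39435959 (minus strand). The rest lie for RPLP1 at chr15:69452808-69452837 (plus strand), for RPS23 at chr5:82278335-82278364 (minus strand) and for RPS18 at chr6:33272065-33272094 (plus strand). The run is 5 bases long in RPL41 and longer in the others. Ribosomal protein genes with such a start had a median intensity of 18713, against 19709 for the 13 without. The first base is the one that RefSeq gives, which for a gene with several starts may not be the one used in these cells.

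Energy genes followed. Of the nuclear genes of oxidative phosphorylation, 32 of 32 were in the top 10%, at a median percentile of 98.1. COX7C (14086), CYCS (14029), the electron carrier cytochrome c, and the ATP synthase genes ATP5MC3 (13718) and ATP5F1A (12514) were the highest, followed by NDUFV2 (10713) and ATP5PO (10608). The complex I genes NDUFS3 (2320), NDUFA9 (1917) and NDUFS1 (1591) were the lowest. Glycolysis genes were above the bound in 18 of 19 cases and in the top 10% in 10, with GAPDH, LDHB (16428), LDHA (16367), ALDOA (10340), TPI1 (8752) and PGAM1 (8404) the highest. ALDOC (307) and the glucose transporter SLC2A3 (149) were the lowest above the bound, and the phosphofructokinase PFKP (117) was under it. Of the 7 mitochondrially encoded genes ranked, 5 had at least 24595, while COX3 had 392 and ND6 210, each on a single probe set.

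Most genes of the cell cycle were above the bound. Among G1 genes, 22 of 25 were above the bound and 7 in the top 10%. CCND2 was followed by TFDP1 (3245), the partner of E2F factors, the D cyclin kinases CDK6 (3106) and CDK4 (3016), the inhibitor CDKN1B (p27, 2851), the pocket protein RBL2 (1834) and E2F3 (1780). E2F2 (1366), CDKN2A (1331), CDKN1A (p21, 1324), E2F7 (1135), E2F8 (975), CCNE1 (920), CDK2 (714), RB1 (647), E2F4 (619), CCNE2 (465), RBL1 (416), E2F1 (297), CDKN1C (255) and E2F5 (154) were in between. The inhibitors CDKN2D (69.7) and CDKN2B (49.4), and CCND1, were below it. CDKN2A and CDKN2B lie side by side in the genome, the first above and the second below the bound. The value of CDKN2A came from an _x_at probe set. Its other probe sets had 146.25, at the bound, and 122, below it, so the contrast rests on that probe set.

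Replication genes were above the bound in 37 of 37 cases, 16 in the top 10%. The nucleotide enzymes RRM2 (11144) and TYMS (8759), the sliding clamp PCNA (7547), the helicase subunits MCM6 (5770) and MCM4 (4757) and the nuclease FEN1 (5457) were the highest. ORC1 (349), POLE (290) and GINS4 (228) were the lowest. E2F factors control many of these genes. An E2F-type site, TTTCCCGC, TTTCGCGC, TTTGCCGC or TTTGGCGC on either strand, was found in 16 of 33 replication promoters (48.5%), against 4.36% of all. Shown are those of 4 carriers, which need not be the 4 highest, with the site in capitals in the direction of the gene.
TYMS: cgggacggccGCGGGAAAaggcgcgcgg
PCNA: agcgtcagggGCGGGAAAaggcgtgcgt
MCM6: gtcaggtttgGCGCGAAAtctccagctc
MCM7: gggggcgacgTTTCGCGCc
On GRCh38.p14 these lie for TYMS at chr18:657604-657631 (plus strand), for PCNA at chr20:5126664-5126691 (minus strand), for MCM6 at chr2:135876512-135876539 (minus strand) and for MCM7 at chr7:100101398-100101416 (minus strand). MCM7, a helicase subunit, had an intensity of 4190. TYMS and PCNA hold the same 8 letters, GCGGGAAA. The 16 members with a site had a median intensity of 1332 and the 17 without it 1355.

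Mitosis genes were above the bound in 32 of 32 cases and in the top 10% in 17. The kinase CDK1 (4632), the checkpoint genes BUB3 (4455), MAD2L1 (3894) and BUB1B (3778), PTTG1 (securin, 3746) and TOP2A (3729) were the highest, and the kinesin KIF23 (484), the centromeric histone CENPA (412) and the phosphatase CDC25C (304) the lowest. The cell cycle homology region, TTTGAA, where a repressor complex of resting cells binds, was found on either strand in 17 of 26 of these promoters (65.4%), against 11.9% of all. Short motifs are found often by letters alone, so the share among all promoters is the value to read it against. Promoters of 4 carriers, which need not be the 4 highest, are shown. The match is in capitals, as TTCAAA where it lies on the other strand.
CDK1: gtataataaaTTTGAActgtgccaat
BUB1B: gaccgttaaaTTTGAAacttggcggc
TOP2A: gattggtttaTTCAAAcaaaccccgg
ASPM: gatgcaatcaTTCAAAtgaagcgccg
On GRCh38.p14 these lie for CDK1 at chr10:60778160-60778185 (plus strand), for BUB1B at chr15:40161036-40161061 (plus strand), for TOP2A at chr17:40418032-40418057 (minus strand) and for ASPM at chr1:197146767-197146792 (minus strand). ASPM, a spindle pole protein, had an intensity of 3093. The 17 members with the sequence had a median of 1843 and the 9 without it 1556.

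**Figure D4:**
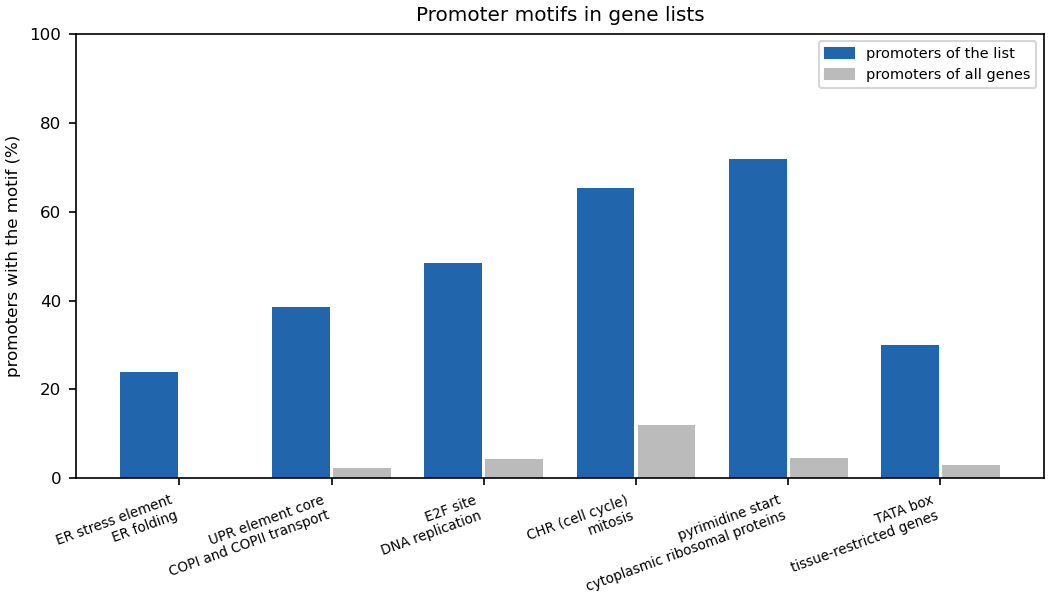
Share of promoters with a motif (percent), in the list the motif is known for (blue) and in all 15381 promoters (grey). The shares in the lists run from 24.0% for the ER stress element in ER folding genes to 71.7% for the pyrimidine start in ribosomal protein genes, and those over all promoters from 0.104% to 11.9%.

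Genes of cell survival were less uniform. In the BCL2 family 10 of 14 (71.4%) were above the bound, against 49.6% of all genes. MCL1 (3507), the inhibitor of apoptosis on which plasma cells depend, and BCL2L1 (BCL-XL, 1953) were in the top 10%, and BCL2 had 964, whereas BCL2L2 (34.1) and BCL2A1 (26.6) of the same class were below the bound. With the median over probe sets 0 of the family were in the top 10%. The BH3-only genes BID (1202), BCL2L11 (BIM, 1200), BAD (833), BMF (709) and PMAIP1 (NOXA, 434) and the pore formers BAK1 (548) and BAX (227) were above the bound, and BIK (105) and HRK (93.2) were below it. In the list of p53 regulators and tumour suppressors, 9 of 9 were above the bound. TENT5C (9934), a poly(A) polymerase often lost in myeloma, was the highest, followed by MDM2 (4157) and MDM4 (1638), which restrain p53, BIRC2 (1377), CYLD (959) and RB1. TRAF3 (645), DIS3 (368) and KDM6A (240) were the lowest.

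Of the NF-kB pathway, 14 of 15 genes were above the bound, but 1, the feedback inhibitor TNFAIP3 (3327), was in the top 10%. RELA (1223), NFKBIA (657), TRAF3, NFKB1 (571) and CHUK (487) came next, CD40 and LTBR (199) were the lowest above the bound, and REL (54.5) was under it. Cytokine and growth factor genes were above it in 17 of 20 cases and in the top 10% in 5, or 3 with the median over probe sets. These 5 were the kinase PIM2 (8266), the interleukin 6 receptor chains IL6ST (6110) and IL6R (4624), the glucocorticoid receptor NR3C1 (2417), and JAK1 (1843). IFNAR1 had 810. IL6 itself, the growth factor of myeloma cells that marrow stroma supplies, had 51.2, and JAK2 (70.2) and FGFR3 were also below the bound.

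The pathway that the series' drug acts on was measured without drug, with 21 of 22 NEDD8 genes above the bound and 12 in the top 10%. RBX1 (3520), the RING protein of cullin ligases, COPS2 (3016), COPS3 (2946) and COPS5 (2695), subunits of the complex that removes NEDD8, were among the 6 highest, as were NAE1 (2782), a subunit of the enzyme that MLN4924 inhibits, and DCUN1D5 (2556), which helps transfer NEDD8. DCUN1D1 (858) and the conjugating enzyme UBE2F (584) were low, and the protease SENP8 (99.5) was below the bound.

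Markers of other cells were near the background. Of T and NK cell genes 2 of 15 were above the bound, GZMB (231) and CD5 (220), with CD3D, CD3E and CD3G at 79.0, 108 and 120. CD2 (40.4), KLRB1 (37.8) and GZMA (23.5) were also below it. With the median over probe sets 5 members were above the bound. Of myeloid genes 1 of 11, S100A9 (271), was above it, with CD14 at 41.9 and LYZ at 19.5. Of stromal and endothelial genes 3 of 14 were above it, PECAM1 (235), which plasma cells also express, COL1A1 (218) and VWF (176). In these 3 lists no gene was in the top 10%, against 10% of all genes, and their median percentiles were 32.2, 29.7 and 30.4. Among erythroid and megakaryocyte genes, 4 of 11 (36.4%) were above the bound, against 49.6% of all genes. HBD (1138) and HBB (1080), haemoglobin chains, were well above it, AHSP (156) and GP9 (158) just above, and ALAS2 (78.1), KLF1 (50.5), EPB42 (30.5) and SLC4A1 (94.0), which mark erythroid cells, below. HBB read above the bound on 3 of its 4 probe sets, at 1080, 586 and 390. What gave the haemoglobin signal was not tested.

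Near the background lay the 59 tissue-restricted genes, with a median of 60.6. The highest were GFAP of astrocytes (299), AQP2 of kidney (173) and SFTPB of lung (173), while CPA1 of pancreas (14.5), RPE65 of retina (7.01) and SI of intestine (5.61) were under the bound. Since genes that other tissues use were spread over most of the range under the bound, an order of values there need not be an order of RNA. The promoters of genes of low intensity had other letters. The lowest 10%, a class wholly under the bound, had a median of 7 CpG pairs in 300 bases, against 27 in genes between the 50th and the 90th percentile and 25.5 in the highest 1%. TATAAA between 45 and 11 bases before the start was found in 12 of 40 tissue-restricted promoters (30%) and 6.10% of those of the lowest 10%, against 3.06% of all. In the highest 1% the share was 5.70%, or 7.02% (8 of 114) with ribosomal proteins left out, so TATAAA was not particular to genes of low intensity. The octamer ATGCAAAT, the immunoglobulin promoter motif, was in 0 of the 5 promoters available for the immunoglobulin list and in 1.51% of all. The ranked members of that list, named above, include no variable segment such as IGLV1-44. This count therefore cannot show whether promoters of variable segments hold the motif.

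How far an intensity depends on the probe set was visible on the control array itself. For 10523 genes on 2 or more probe sets the median gap between the highest and the lowest was 1.80 on the log2 scale, and 2.45 for the 6706 above the bound. Of those 6706 genes, 2170 had every probe set above the bound, and 2476 (36.9%) had only 1. The size and order of the largest gaps rest on probe sets under the bound, so the values are given as ranges. They were those of IGLC1, METAP2 (1.48 to 2433), MACROH2A1 (6.62 to 8782), IGLV1-44 (28.5 to 31234), GNAS (16.5 to 17111), TSPAN3 (3.60 to 3720), TLK1 (1.98 to 1795), EEF1A1 (41.96 to 31107), RPL36 (21.8 to 14820) and FAM98B (2.82 to 1812). The markers differed in this respect. Both probe sets of SDC1 were close, at 3087 and 3377. MAF had 6, at 8882, 2982, 2344, 449, 220 and 40.9, of which 5 were above the bound. CCND2 had 4, from 279 to 11264, all above it. IRF4 had 4678, 306 and 18.6, and XBP1 9978 and 53.4, so that their place in the top 10% rests on 1 probe set each.

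**Figure D5:**
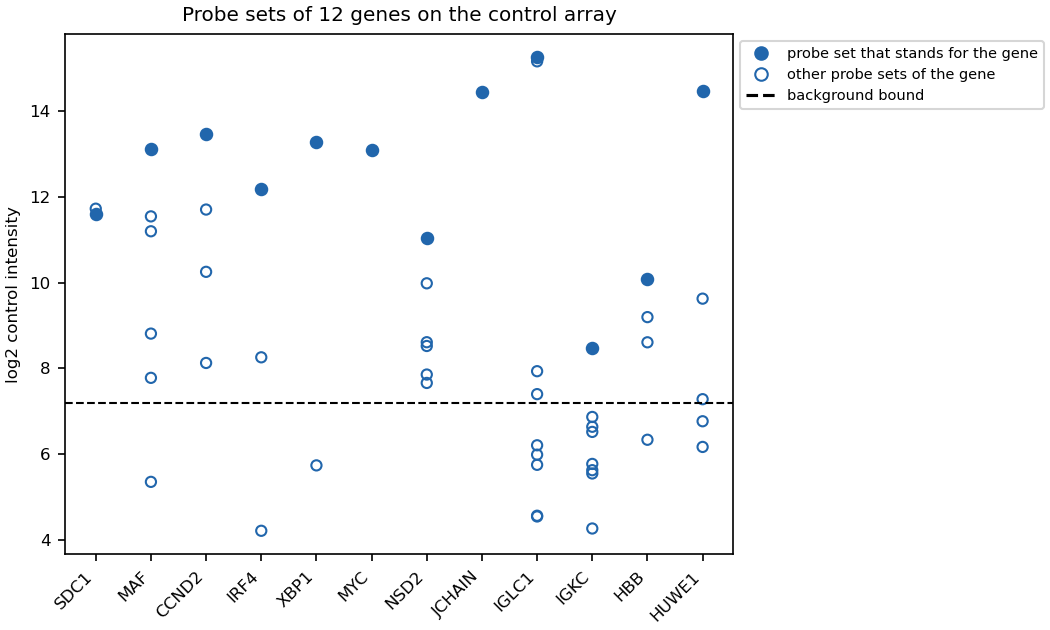
Log2 control intensity of each probe set of 12 genes, with the probe set that stands for the gene filled, the others open, and the background bound (146) dashed. SDC1 and NSD2 have every probe set above the line, XBP1 and IRF4 have 1 low probe set each (53.4 and 18.6), and HUWE1, shown after its values were seen, has 22483 on the filled one and 72 to 789 on the others.

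The treated arrays held the order of genes closely. Across 19775 genes, which are not independent, the log2 intensities of the control correlated with those at 8, 16 and 24 h of MLN4924 at Pearson's r of 0.992, 0.990 and 0.989 and Spearman coefficients of 0.991, 0.990 and 0.989. Of the 100 highest control genes, 97, 95 and 94 were among the 100 highest of those arrays. The median gene moved by 1.81, 2.10 and 2.17 percentile points, and the median gene of the top 10% by 0.324, 0.546 and 0.546. Genes below the bound moved more, by medians of 2.87, 2.75 and 2.95 points. These shifts hold the effect of the drug as well as error between arrays. Each gene was read from the same probe set on all 4 arrays, so the shifts cannot show how far a rank depends on the probe set. IRF4, for example, was at percentile 97.5 on the control array and at 75.8 with the median over probe sets. Of the 9808 genes above the bound in the control, 9220, 9544 and 9255 were above the bound of the other arrays. That bound was set in the same way on each array and came to 167, 148 and 165 at 8, 16 and 24 h, against 146 in the control. The largest shifts from the control to the mean of the MLN4924 arrays were upward for NCAM1 (41.9 points), MSC-AS1 (31.7), AKR1C2 (29.1), AKR1C3 (28.1), FAM13A (22.1), FBLL1 (20.6), COL24A1 (20.5) and NQO1 (19.8), and downward for RHOBTB1 (-23.1) and LINC01215 (-20.2). RHOBTB1 (intensity 88.1 in control cells and a mean of 42.1 with MLN4924), LINC01215 (81.9 and 43.0), MSC-AS1 (27.7 and 98.96) and FAM13A (58.0 and 119) were under the bound of 146 on both sides, so that these 4 shifts lie in the background range. None of the 5 markers was among the 10 genes. NQO1, a quinone reductase, had 348 on the control array, and the ranks given here for these 10 genes hold for the control alone.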

How the data were processed

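MM.1S cells were profiled on Affymetrix arrays of 54675 probe sets, with 1 DMSO control array and 1 array each at 8, 16 and 24 h of 250 nM MLN4924, per the labels. RNA was extracted with Trizol and labelled as biotinylated cRNA, per the labels' protocols. The values deposited by the authors are intensities on a linear scale; how they were summarised, corrected for background and normalized is not given in the sources used here, and no normalization was added. The arrays carry no read depth, and their number limits the precision.

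Of the probe sets, 41097 had exactly 1 gene symbol in the array's annotation, 1801 had several and 11777 were not listed; 41043 were matched to RefSeq (GRCh38.p14) by Entrez identifier, and 0 symbols changed. Each gene was read from 1 probe set, that of the highest mean log2 intensity over the 4 arrays, giving 19775 genes, of which 10523 had 2 or more probe sets. Counts were made of genes above the background bound (95th percentile of tissue-restricted genes, 59 of 70 with a probe set used here) and in the top 10% and top 1%. In all 32 lists with 765 genes were used, of which 683 had a probe set used here. Computing used Python 3.11.15, pandas 2.3.3 and numpy 2.4.6, and the ranking was tested on simulated data.

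Members, lists and rules were chosen with earlier results of these data known. Named were the 30 highest genes, the 5 markers, every member of the plasma cell, surface, B cell, immunoglobulin, translocation, MAF, BCL2 and G1 lists, the 6 highest, the 3 lowest and any exceptional members of other lists, and the 10 largest gaps and shifts. Motifs, their carriers, the defining markers of other cells, and HUWE1 and the genes of the closing part were chosen after their values were seen. Promoters were taken from RefSeq for 15381 genes. The alternatives were other bounds, the median over probe sets, the removal of _x_at and _s_at probe sets, and the mean of the MLN4924 arrays.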

Additional observations from a re-analysis of the deposited data

How the results depend on the processing

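With 1 control array no replicate could be left out and no test made, and the order of genes is limited by probe binding. No paired analysis was possible because each group holds 1 array. The genes above the bound numbered 9808, against 10689 with the bound at the 90th percentile of the tissue-restricted genes (123), 12357 at the median of all probe sets (92.2), 9826 with the median over probe sets (bound 102) and 7910 of 17100 without _x_at and _s_at probe sets (bound 124). The percentiles of SDC1, MAF, IRF4 and XBP1 were 98.0, 91.7, 75.8 and 88.3 with the median over probe sets and 98.0, 97.5, 98.9 and 99.7 without _x_at and _s_at probe sets; CCND2 was at 96.2 with the median and had no probe set left without those kinds.

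Of 221 list counts and totals under alternatives, 189 stayed within 1.5 times the reported count and 32 did not. Removing _x_at and _s_at probe sets leaves fewer genes to count. Without them the genes above the bound numbered 6 for B cell genes, 4 for translocation loci, 9 for ER-associated degradation, 23 for ribosomal proteins, 7 for glycolysis, 9 for NF-kB, 4 for MHC class I, 5 for MHC class II and 2 for erythroid and megakaryocyte markers. Those in the top 10% numbered 2 for immunoglobulin, 2 for translocation loci, 12 for ER entry, 7 for ER-associated degradation, 13 for ribosomal proteins, 9 for translation factors, 18 for oxidative phosphorylation, 4 for glycolysis, 0 for NF-kB, 2 for MHC class I and 1 for erythroid and megakaryocyte markers. With the median over probe sets 4 immunoglobulin genes and 5 T and NK cell markers were above the bound. In the top 10% there were then 1 plasma cell factor, 2 immunoglobulin genes, 3 translocation loci, 1 unfolded protein response gene, 0 BCL2 family genes, 3 cytokine genes and 1 erythroid and megakaryocyte marker. With the bound at the median of all probe sets, 6 T and NK cell and 2 myeloid markers were above it. The mean of the MLN4924 arrays put 1 BCL2 family gene in the top 10%. For changes under the median over probe sets the cause was not tested.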

Other observations

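Of the 36 genes among the 100 highest that belonged to no list, several encode the cytoskeleton and chromatin. ACTB (actin) had 21601, TUBA1B (alpha tubulin) 21523, CFL1 (cofilin, which severs actin) 14121, PTMA (prothymosin alpha) 19949, HMGN2 (a nucleosome-binding protein) 17282 and H2AZ1 (a histone variant) 16331. HSPD1, the mitochondrial chaperonin, had 18575, NPM1, of the nucleolus, 16941, and OAZ1, which limits polyamine synthesis, 19112. FTL, the ferritin light chain, had 16981. MIF, a cytokine that leukocytes secrete, had 14827. The long non-coding RNA MALAT1 had 17800, with 11 of its 12 probe sets above the bound. Outside the 100 highest, the long non-coding RNAs DANCR, CRNDE and NORAD had 5166, 4171 and 4011 (numbers 432, 595 and 627 of all genes).

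By kind of gene, 9326 of 16520 protein-coding genes (56.5%) were above the bound, against 314 of 2656 long non-coding RNAs (11.8%). Each gene was read from its probe set of highest mean, and the number of probe sets per gene was not compared between these kinds. Of the nuclear chromosomes tabulated, the share above the bound was highest on 22 (58.0% of 460 genes) and 16 (57.2% of 825) and lowest on 13 (42.1% of 401), with 49.6% over all genes. HUWE1, a ubiquitin ligase, had 22483 on an _x_at probe set and 789, 156, 109 and 71.9 on its other probe sets. GUSBP11, a pseudogene on chromosome 22, had 19826 on an _x_at probe set, while its 4 probe sets reached down to 83.4 with a median of 169.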
